A study of Arabidopsis thaliana with 4 samples.

Results

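The genes described here are aquaporins of the plasma membrane and of the tonoplast, the membrane around the vacuole, in Arabidopsis seedlings. The list held 10 loci, 7 plasma membrane intrinsic proteins (PIP) and 3 tonoplast intrinsic proteins (TIP). A probe set that maps to exactly 1 of these loci was found for 8 of them, 5 PIP and 3 TIP, out of 22746 probe sets tested. PIP1;5 (AT4G23400) and PIP2;7 (AT4G35100) have no probe set under their name in the sources used here and were not analysed. All 8 were named only through the list of changed genes that accompanied the study. That list was available here only in part, as 1998 rows, and its rest was not searched for the missing PIP loci. All 987 probe sets named only through these rows had a higher mean in the mutant. A higher value in the mutant was thus built into the choice and supports nothing by itself, and the values below describe the size and spread of each difference.

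Aquaporins are channel proteins that let water, and in some isoforms other small neutral molecules, cross a membrane along its gradient. In plants the PIP proteins control how fast water enters and leaves the cell, and the TIP proteins let the large central vacuole exchange water with the cytosol. PIP proteins fall into the subfamilies PIP1 and PIP2. In maize, PIP1 proteins reach the plasma membrane efficiently when they assemble with a PIP2 partner. TIP proteins have long been used as markers of vacuole types, with TIP1 isoforms prominent in vegetative tissue.

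The study hybridised total RNA of whole seedlings at 10 days of age to 4 Affymetrix ATH1 arrays, 2 of wild type and 2 of the Atdi19-3 mutant, both in the Col-0 ecotype. The mutant is homozygous for a T-DNA insertion that was mapped to the fifth exon of AtDi19-3 (At3g05700), towards its 3' end. This is a gene of the drought-induced Di19 family, and the arrays stand for a single insertion line. Seedlings of both genotypes grew on 1/2 MS medium in white light at 22 °C with 16 h of light and 8 h of dark, and neither received a treatment. The labels call the 2 samples per genotype biological replicates, without saying how the cultures were kept apart, so p-values measure the spread between these arrays. No probe set was matched to AtDi19-3 itself, so the labels could not be checked on the mutated gene.

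Quality controls separated the arrays in the same way as genotype did, so that these cannot be told apart here. All 18 probe sets for the added hybridisation controls were lower on the Atdi19-3 arrays. Their median log2 value was 9.69 and 9.41 in the wild type against 5.92 and 6.20 in Atdi19-3. The share of probe sets above a log2 value of 4 was 7.10% and 8.34% in the wild type against 14.1% and 13.5% in the mutant. The difference between 3' and 5' probe sets of actin, ubiquitin and GAPDH transcripts was smaller on both mutant arrays in 5 of 6 pairs, and larger on both in an actin pair, with 4.56 and 4.56 in the wild type against 4.71 and 4.62. For the pair of GAPDH with the narrowest wild-type difference it was 2.76 and 2.89 in the wild type against 0.58 and 0.78 in Atdi19-3, on the log2 scale. Of the markers of green tissue, 5 of 6 were measured and 2, the antenna proteins LHCB4.1 and LHCB4.2, were called higher in Atdi19-3 by limma (adjusted p under 0.05), beside 3.16% of all tested probe sets. The log2 fold changes of the 5 ran from -0.66 to 4.51, and 1 of them, the carbonic anhydrase CA1, was named through the study's list and hence by direction. Of the 6 root markers 2 were measured. The root beta-glucosidase PYK10 lay between 3.21 and 3.56 on the 4 arrays. The root hair expansin EXPA7 lay between 2.60 and 2.68, close to the lowest value of 2.49. No seed or flower marker on the lists had a named probe set. The part of array quality or tissue make-up in the differences below was not tested, and in whole seedlings fewer cells of a type and less RNA per cell cannot be told apart.

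Each of the 8 aquaporin probe sets read higher on both Atdi19-3 arrays than on both wild-type arrays. Such non-overlap held for 28.5% of all tested probe sets, and for 98.9% of the 987 probe sets that carry a name only through the same list. At an adjusted p under 0.05 in limma, with Benjamini-Hochberg adjustment over all probe sets, 4 of the 8 were called higher and 0 lower: PIP1;2, PIP2;1, TIP1;1 and TIP2;1. The background was 3.16% of all tested probe sets called higher and 0.602% called lower, and 26.3% called higher among the 987. With the study's own kind of threshold, a log2 fold change over 1 and an unadjusted p of 0.05 or less, 7 of the 8 passed against a background of 6.34%. PIP1;4 was the exception, with an unadjusted p of 0.051 in limma. The list that named the 8 was itself drawn up by change, so passing such a threshold was partly built in. The share passing it among the 987 was not computed. The log2 fold changes of the 8 ran from 1.26 to 3.77 with a median of 2.75, beside a median of 0 over all tested probe sets. Among the 2334 probe sets with a mean log2 value above 4, which include all 8, the median was 0.77. Fitted to these alone, limma called 50.1% of them and all 8 aquaporins higher. The corresponding median of the 987 was 1.36, with an upper quartile of 1.92. Ranked from the largest log2 fold change among these 987, PIP1;1 stood at 558, PIP1;2 at 458, PIP1;4 at 237 and PIP1;3 at 150. TIP1;1 stood at 21, TIP2;1 at 22, PIP2;1 at 45 and TIP1;2 at 46.

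**Figure D1:**
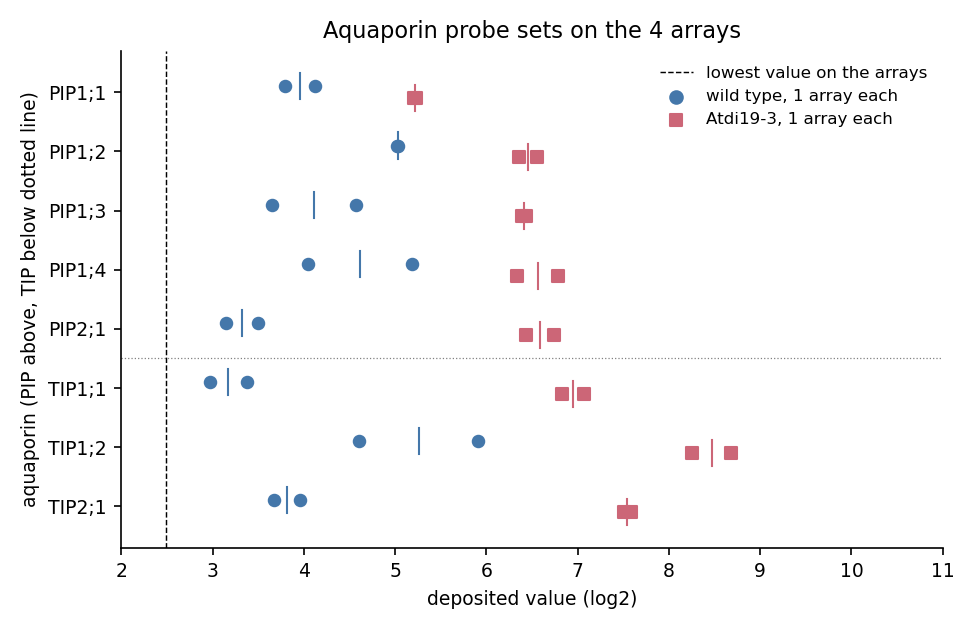
Deposited log2 value (horizontal axis) of each aquaporin probe set on the 2 wild-type arrays (circles) and the 2 Atdi19-3 arrays (squares), with a vertical tick at each genotype mean and a dashed line at the lowest value on the arrays, 2.49. No wild-type point reaches an Atdi19-3 point of the same gene, and PIP1;3, PIP1;4 and TIP1;2 have wild-type arrays about a log2 unit apart.

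The PIP1 isoforms are described first. PIP1;1 (AT3G61430, probe set 251324_at) gave wild-type values of 4.12 and 3.80 against 5.23 and 5.20 in the mutant. It had the smallest difference of the 8, a log2 fold change of 1.26 with a standard error (SE) of 0.15, which is 2.39-fold. Its adjusted p of 0.0915 in limma did not pass, although the 95% interval of 0.72 to 1.79 lay above 0.

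PIP1;2 (AT2G45960, probe set 266927_at), an isoform also studied in Arabidopsis leaves for its part in carbon dioxide uptake, read 5.04 and 5.02 in the wild type against 6.35 and 6.55 in Atdi19-3. Its wild-type arrays lay closer together than those of any other member. It was called higher in limma (log2 fold change 1.43, SE 0.09, 95% interval 1.10 to 1.75, adjusted p = 0.0454), a 2.69-fold difference.

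PIP1;3 (AT1G01620, probe set 259431_at) read 3.65 and 4.57 in the wild type against 6.39 and 6.43 in Atdi19-3. The wild-type arrays were 0.92 apart and the mutant arrays 0.04 apart. The log2 fold change of 2.30 was the largest of the PIP1 isoforms, with an SE of 0.41 and an interval of 0.81 to 3.78, and it was not called (limma adjusted p = 0.153).

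PIP1;4 (AT4G00430, probe set 255674_at) read 4.05 and 5.18 in the wild type against 6.78 and 6.34 in the mutant. It had the same high second wild-type array, 1.14 above the first, and also the widest gap between mutant arrays of the 8, 0.44. Its log2 fold change of 1.95 (SE 0.55) had an interval that reached below 0, from -0.02 to 3.92, and was not called (limma adjusted p = 0.274).

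PIP2;1 (AT3G53420, probe set 251962_at), the only PIP2 isoform of the list with a named probe set, is a major water channel of roots and leaves that Arabidopsis regulates by phosphorylation and by removal from the cell surface. It read 3.15 and 3.50 in the wild type against 6.74 and 6.43 in Atdi19-3. It was the largest difference among the plasma membrane members, 9.57-fold, and was called higher in limma (log2 fold change 3.26, SE 0.21, 95% interval 2.52 to 4.0, adjusted p = 0.0458).

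The tonoplast isoforms followed. TIP1;1 (AT2G36830, probe set 263867_at), also known as gamma-TIP and abundant in the vacuoles of growing vegetative cells, read 3.38 and 2.97 in the wild type against 6.83 and 7.06 in the mutant. The second wild-type array read under 3, close to the lowest value on the arrays, so the size of the difference is less certain. This difference was 13.7-fold and was called higher in limma (log2 fold change 3.77, SE 0.21, 95% interval 3.01 to 4.54, adjusted p = 0.0406).

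TIP1;2 (AT3G26520, probe set 257313_at), its close relative, read 4.61 and 5.91 in the wild type against 8.26 and 8.68 in Atdi19-3. The 2 wild-type arrays were 1.31 apart, the widest gap of any member, with the second again the higher. The log2 fold change of 3.21 corresponds to 9.24-fold, but its SE of 0.62 and interval of 0.99 to 5.42 left it uncalled (limma adjusted p = 0.167).

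TIP2;1 (AT3G16240, probe set 258054_at), also known as delta-TIP and, in Arabidopsis, permeable to ammonia as well as water, read 3.96 and 3.67 in the wild type against 7.58 and 7.51 in the mutant. Both genotypes had arrays within 0.29 of each other. Its 13.3-fold difference had the smallest adjusted p of the 8 in limma (log2 fold change 3.73, SE 0.14, 95% interval 3.24 to 4.21, adjusted p = 0.0284).

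The spread between wild-type arrays did not run the same way in all members. PIP1;3, PIP1;4, TIP1;2 and, by 0.34, PIP2;1 were higher on the second wild-type array, whereas PIP1;1, TIP1;1 and TIP2;1 were lower on it by 0.29 to 0.41. PIP1;2 differed by 0.02. The 3 members with the widest wild-type gaps were those with the largest SE, and none of these was called.

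**Figure D2:**
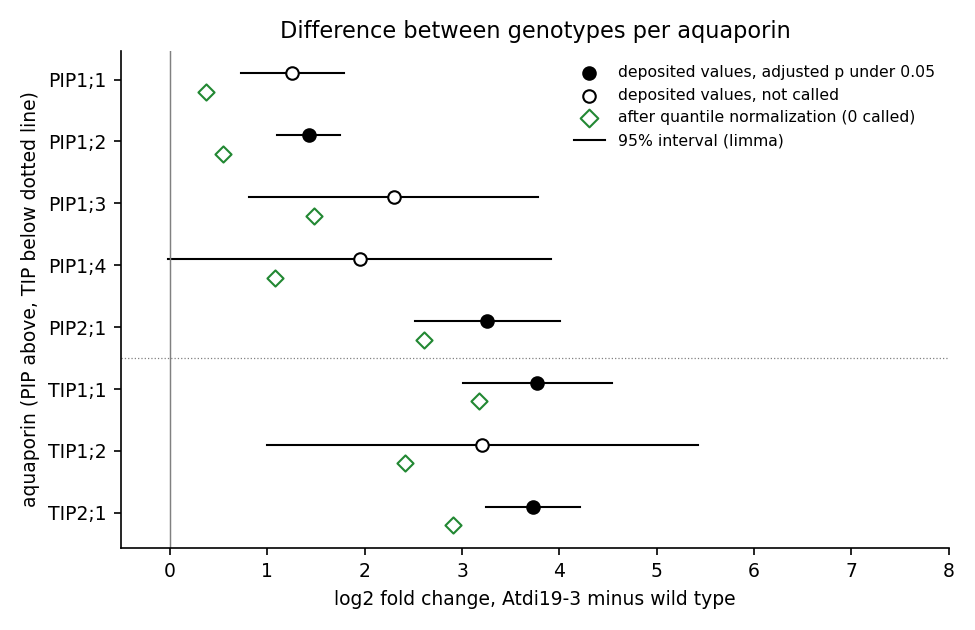
Log2 fold change of each aquaporin, Atdi19-3 minus wild type, from the deposited values with its 95% interval in limma (circles, filled where the adjusted p was under 0.05) and after quantile normalisation of the same values (diamonds, 0 called). The diamonds of PIP1;1 and PIP1;2 lie at 0.37 and 0.54, and those of PIP2;1 and the TIP isoforms lie between 2.41 and 3.17.

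When the deposited values were forced to the same distribution on every array (quantile normalisation), the difference fell in all 8 members by a like amount, 0.60 to 0.88 on the log2 scale. Of the deposited difference, 29.7% to 64.4% was left in the PIP1 isoforms and 75.2% to 84.0% in PIP2;1 and the TIP isoforms. PIP1;1 went from 1.26 to 0.37, PIP1;2 from 1.43 to 0.54, PIP1;3 from 2.30 to 1.48 and PIP1;4 from 1.95 to 1.08. PIP2;1 stood at 2.61, TIP1;1 at 3.17, TIP1;2 at 2.41 and TIP2;1 at 2.91 after the same step. All 8 stayed above 0, but limma called 0 of them, with adjusted p from 0.0709 for TIP2;1 to 0.568 for PIP1;1, and called 1.19% of all probe sets higher.

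Calls also depended on single arrays. A fit without 1 array leaves that genotype with a single array, which is taken to vary like the 2 of the other genotype, so these calls rest mainly on the spread of that other pair. Without the first wild-type array, limma called PIP1;1 (adjusted p = 0.0237), PIP1;3 (0.0267) and TIP2;1 (0.0214), and PIP1;2, PIP2;1 and TIP1;1 were lost. Without the second, the same 3 genes were called, with 0.0286, 0.0169 and 0.0217. The Atdi19-3 arrays of PIP1;1, PIP1;3 and TIP2;1, which set most of the spread in these fits, were 0.03, 0.04 and 0.07 apart. Leaving out the first or the second Atdi19-3 array left no probe set called, with a smallest adjusted p of 0.0569 in limma over all probe sets and values of 0.16 and 0.146 for TIP2;1.

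The rank of each probe set on its own array does not depend on how the arrays were scaled. PIP1;1 stood at percentile 93.7 and 90.2 of the tested probe sets in the wild type and at 94.0 on both mutant arrays, a shift of 2.07 points between genotype means. PIP1;2 shifted by 1.05 points, from 96.4 and 95.9 to 97.0 and 97.4. TIP1;1 moved from 86.0 and 70.8 to 97.8 and 98.1, and PIP2;1 from 79.7 and 86.7 to 97.7 and 97.2. TIP1;2 was near the top of every array, at 95.5 and 97.6 in the wild type against 99.3 and 99.5 in Atdi19-3, while TIP2;1 went from 92.7 and 88.8 to 98.7 and 98.6. PIP1;3 went from 90.1 and 94.6 to 97.1 and 97.2, and PIP1;4 from 93.2 and 96.2 to 97.8 and 97.0. For PIP1;1, PIP1;2 and PIP1;4 the nearest arrays of the genotypes were thus less than a percentile point apart. Percentiles end at 100, so members that ranked high in the wild type had little room to shift. TIP1;2, for example, shifted by 2.89 points at a log2 fold change of 3.21.

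**Figure D3:**
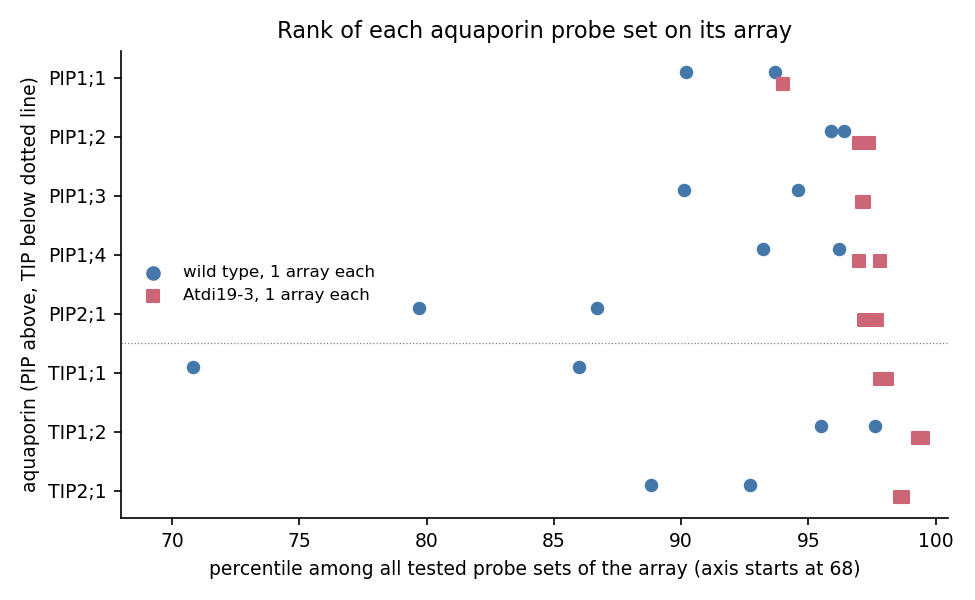
Percentile of each aquaporin probe set among all tested probe sets of the same array (horizontal axis, not starting at 0), for 2 wild-type arrays (circles) and 2 Atdi19-3 arrays (squares). TIP1;1 and PIP2;1 show the widest shifts, 19.6 and 14.2 points between genotype means, and PIP1;2 the narrowest, 1.05 points.

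Plasma membrane and tonoplast members were then compared by their differences between genotypes, since levels of different probe sets cannot be set against each other. The median log2 fold change was 1.95 over the 5 PIP probe sets, 2 of them called higher, and 3.73 over the 3 TIP probe sets, 2 of them called higher. The TIP median thus exceeded the PIP median by 1.78. On single arrays, the median TIP value minus the median PIP value was -0.08 and -0.90 in the wild type against 1.19 and 1.08 in Atdi19-3. The median PIP value was not that of the same probe set on every array. Level differences between probe sets thus enter these values, and their lack of overlap cannot be read as change alone. How often other contrasts of this kind fail to overlap was not computed. No test was made, since 0.333 is the smallest p that exact permutation of 4 arrays allows. The difference of 1.78 became 2.44 without the first wild-type array and 1.07 without the second, and it was 1.83 after quantile normalisation.

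Pair by pair, the contrast held against the PIP1 isoforms and not throughout against PIP2;1. Of the 15 pairs of a TIP and a PIP, 14 had a within-array difference that was larger in Atdi19-3, and in 13 the genotypes did not overlap. All 12 pairs with a PIP1 isoform were among these 13, with changes of 0.91 to 2.52. For TIP2;1 minus PIP1;1 the difference went from -0.16 and -0.13 (wild type) to 2.35 and 2.30 (mutant), the tightest pair. The 15 pairs reuse the same probe sets, so they are not separate observations. How often other pairs of probe sets fail to overlap was not computed.

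The 3 pairs with PIP2;1 were different. TIP1;1 minus PIP2;1 was 0.23 and -0.53 in the wild type against 0.09 and 0.64 in Atdi19-3, and TIP1;2 minus PIP2;1 was 1.45 and 2.42 against 1.52 and 2.25, so both overlapped. TIP2;1 minus PIP2;1 was 0.81 and 0.17 against 0.84 and 1.08, which did not overlap but came within 0.04 at the nearest arrays. Within the plasma membrane, PIP2;1 gained on each of the 4 PIP1 isoforms by 0.96 to 2.00, with no overlap in any of these 4 pairs. PIP2;1 minus PIP1;1, for example, was -0.97 and -0.30 in the wild type against 1.50 and 1.23 in the mutant. The log2 fold changes of the 4 PIP1 probe sets ran from 1.26 to 2.30, and those of PIP2;1 and the TIP probe sets from 3.21 to 3.77. This split within the plasma membrane members was seen in the values first and carries no test. Its 4 pairs all hold PIP2;1, and a share of non-overlap over other pairs was not computed for them either.

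**Figure D4:**
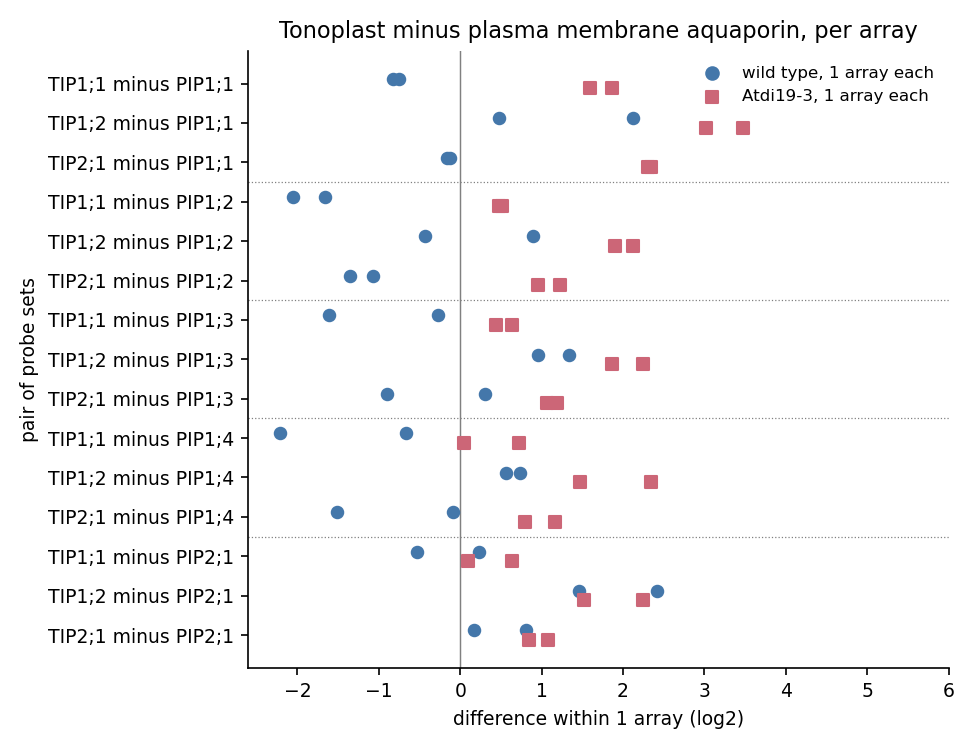
Value of a tonoplast probe set minus that of a plasma membrane probe set on the same array (log2, horizontal axis), for the 15 pairs, with wild-type arrays as circles and Atdi19-3 arrays as squares; dotted lines separate the plasma membrane partners. The squares lie to the right of the circles in 13 pairs, and the 2 exceptions pair TIP1;1 and TIP1;2 with PIP2;1.

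Of 25 further aquaporin loci, 3 had a probe set of their own, again named only through the study's list. Of these 3, limma called 0, beside 26.3% called higher among probe sets named in that way and 3.16% of all tested. PIP2;6 (AT2G39010), a plasma membrane channel, read 4.04 and 3.68 in the wild type against 6.12 and 5.56 in Atdi19-3 (log2 fold change 1.98, SE 0.30, limma adjusted p = 0.123). PIP2;5 (AT3G54820) read 2.73 and 2.91 against 3.76 and 3.67, with both wild-type arrays under 3. The size of its log2 fold change of 0.90 (SE 0.09, limma adjusted p = 0.0763) is thus less certain. SIP1;1 (AT3G04090), a small basic intrinsic protein of the endoplasmic reticulum, read 3.63 and 3.01 against 4.53 and 4.54 (log2 fold change 1.22, SE 0.28, limma adjusted p = 0.208). In none of the 3 did the genotypes overlap, beside 98.9% without overlap among probe sets named in that way and 28.5% of all tested. The log2 fold change of PIP2;6 lay below that of PIP2;1 and inside the range of the PIP1 isoforms. PIP2;5, with both wild-type arrays under 3, was not ranked.

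Proton pumps of the same membranes set up the gradients that drive solute uptake, and water follows solutes through aquaporins. Of 11 plasma membrane H+-ATPase genes 2 were measured, both named through the study's list, and 1 was called higher, beside 26.3% of the probe sets named in that way and 3.16% of all tested. AHA1 (AT2G18960), a major isoform, read 3.01 and 3.35 in the wild type against 6.20 and 6.31 in Atdi19-3 (log2 fold change 3.08, SE 0.16, limma adjusted p = 0.0382). AHA11 (AT5G62670) was not called, with 0.76 (SE 0.29, limma adjusted p = 0.406).

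Of 29 genes listed as tonoplast pumps, the vacuolar H+-ATPase (VHA) subunits and the H+-pyrophosphatase AVP1, 13 were measured. In which membrane each listed isoform resides was not checked. The platform annotation named 9 of these regardless of change, and these 9 gave 1 call higher and 0 lower in limma, beside 3.16% and 0.602% of all tested probe sets, with 8 of 9 above 0 and a median log2 fold change of 0.38. The called subunit was VHA-H (AT3G42050), a regulatory subunit of the cytosolic sector, which read 3.91 and 3.69 against 6.22 and 5.95 (log2 fold change 2.29, SE 0.16, limma adjusted p = 0.0488). The other 4, named through the study's list and hence by direction, gave 2 calls and a median of 2.25 in log2 fold change, beside 26.3% called higher among all probe sets named in that way. AVP1 (AT1G15690), which acidifies the vacuole with pyrophosphate as its fuel, read 3.93 and 4.01 in the wild type against 8.03 and 7.80 in the mutant. Its log2 fold change of 3.95 (SE 0.11) was called higher (limma adjusted p = 0.0236). VHA-B2 (AT4G38510), a nucleotide-binding subunit, was called with 0.93 (SE 0.06, limma adjusted p = 0.0421). The lowest of the 13 was VHA-e1 (AT5G55290), a small membrane subunit, at -0.46 (limma adjusted p = 0.412).

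**Figure D5:**
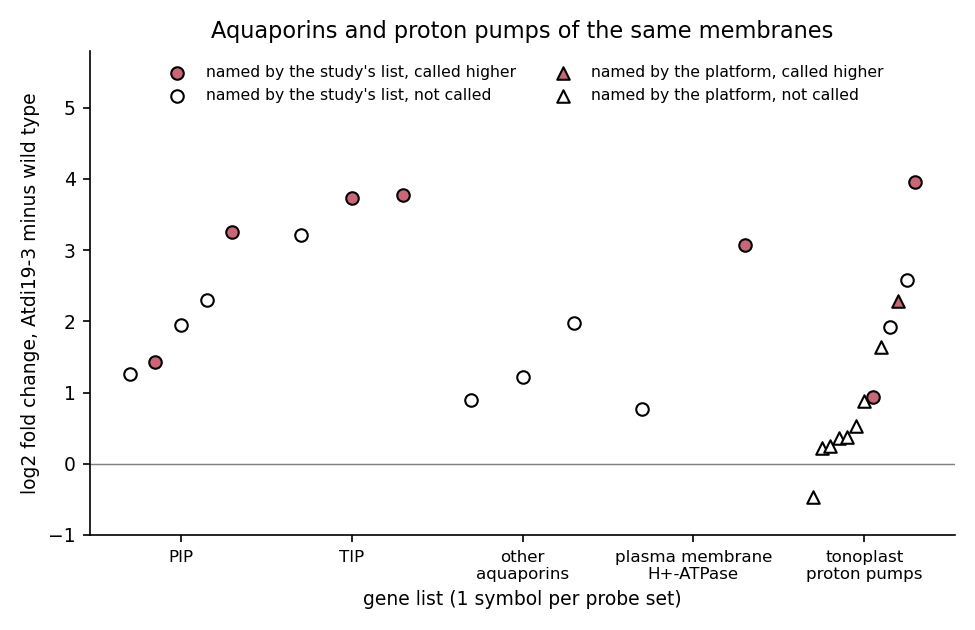
Log2 fold change (vertical axis, Atdi19-3 minus wild type) of each probe set in 5 gene lists. Circles mark genes named through the study's list and hence by direction, and triangles mark genes named by the platform annotation. Filled symbols are those limma called higher. The 9 triangles run from -0.46 to 2.29 with a median of 0.38, and all circles lie above 0.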

How the data were processed

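Total RNA of whole seedlings (500 ng per array) was labelled with biotin from the 3' end. The deposited values are on a log2 scale and were made by the authors with GCRMA, which corrects background and normalises, in R 3.4.0 according to the submitters' processing notes. How the arrays were normalised with each other was not stated in those notes, and the analysis did not start from scans. Everything else was computed in R 4.3.3. Without the 64 control probe sets, 22746 were fitted with limma 3.58.1 (lmFit, eBayes; no covariate, no filter on dim probe sets), Atdi19-3 against wild type, and called at a Benjamini-Hochberg adjusted p under 0.05. The scripts were checked on simulated data.

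A probe set was named by the platform annotation where it gives a single gene (13513 probe sets; 503 have several and 8730 none), through the RefSeq gene table of TAIR10.1. Otherwise a single-gene row of the study's list of changed genes named it (987 probe sets, from the 1998 rows used here). All members with a probe set were described, with every other aquaporin that has its own probe set. For each pump list, up to 4 called genes with the largest change were named, or the 2 with the smallest p where none was called; AHA11 and VHA-e1 were named after their values were seen. The members and lists were chosen with earlier results of these data known. The authors' own fold changes and p-values were not used. A planned search of promoters for motifs was not run, as no sequence was used here, and no source named the build behind the probe names, so no coordinates are printed. Alternatives were other scalings, a filter on dim probe sets, a variance trend, the replicate block and leaving out each array.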

Additional observations from a re-analysis of the deposited data

How the results depend on the processing

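All 8 aquaporins kept a log2 fold change above 0 in every alternative fitted, and of 80 alternative values for single genes 46 stayed on their side of the threshold in the same direction, 12 passed it, 22 no longer passed it and 0 reversed. Keeping a value above 0 is no separate support, since direction was built into the choice. All 987 probe sets named only through the same list lay above 0 on the deposited values. How many of those kept their sign in the alternatives was not computed. The count of aquaporins called higher, 4 on the deposited values, was 0 after quantile normalisation. There limma called 270 probe sets higher and 158 lower in place of 718 and 137. It was 4 after centring each array on its median (1184 higher and 130 lower) and 4 with a mean-variance trend. It was 8 after centring on the spike-in controls, a step that raised the median log2 fold change of all probe sets from 0 to 2.20 and called 22729 of 22746 higher. It was also 8 among the 2334 probe sets with a mean above 4, of which 50.1% were called higher. That mean includes the mutant arrays, and PIP1;1, PIP2;1, TIP1;1 and TIP2;1 passed the filter only through them. The count was 7 at a log2 fold change above 1 with an unadjusted p of 0.05 or less. The labels do not say whether same-numbered arrays shared more than a number, and the correlation of their deviations was 0.02. With the replicate block the count of aquaporins called higher was 0, and limma then called no probe set (smallest adjusted p 0.138). Without a single array it ranged from 0 to 3.

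The plasma membrane median of 1.95 was 1.08 after quantile normalisation, 4.14 after spike-in centring and between 1.43 and 2.52 without a single array. The tonoplast median of 3.73 was 2.91, 5.92 and between 3.58 and 3.87. Their difference of 1.78 ranged from 1.07 to 2.44 without a single array. The cause of these changes was not tested. With 2 arrays per genotype, limma borrowed little from other probe sets (0.481 prior degrees of freedom), and 2755 probe sets had a single value on all 4 arrays.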
